A study of Mus musculus with 5 samples.

Results

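The pre-B cell receptor and the factors that commit a progenitor to the B lineage were followed through 9 genes: Vpreb1, Igll1, Blnk, Cd79a, Cd79b, Ebf1, Pax5, Blk and Syk. Members were all probe sets that the array's annotation assigns to 1 of these symbols and to no other gene, which gave 18 of the 45037 probe sets tested. One more probe set carries Vpreb1 together with another symbol and was left out. Ebf1 had 5 probe sets, Syk had 4, Igll1 and Pax5 had 2 each, and the other 5 genes had 1 each.

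Affymetrix mouse arrays measured the RNA of KLS cells, the c-Kit+ Lin- Sca-1+ fraction of blood-forming cells that includes stem cells and multipotent progenitors. The 2 control arrays, titled wild type, had the genotype Rb +/+ p130 +/+ p107+/-, so they lacked 1 copy of the p107 gene. The 3 Rb family deficient arrays had the genotype Rb -/- p130 -/- p107-/-, and the comparison addresses what loss of the whole family does to RNA levels in these cells. Recombination of the floxed alleles was started at 6 weeks of age with the inducible Mx1-Cre system, whose promoter answers to interferon and is not restricted to stem cells. Cells were sorted 2 months later, and the labels give the same induction for both groups. The labels do not say whether an array is 1 animal or a pool, so the p-values cover only the variation from array to array, which may be technical in part. Arrays of 1 group did not all hold alike RNA, since the sex-linked genes Xist and Eif2s3y differed between arrays of the same group, as given with Vpreb1. Of 6 hybridisations the study left out 1. The number of arrays limits the precision.

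In a B cell precursor, the surrogate light chain, made of the VPREB and lambda5 proteins, pairs with a newly rearranged immunoglobulin heavy chain and reaches the surface with the signalling pair CD79A and CD79B. Tyrosines in the tails of CD79A and CD79B are phosphorylated by SRC family kinases such as BLK and then bind the kinase SYK, which phosphorylates the adaptor BLNK. EBF1 and PAX5 are the transcription factors that specify and fix B cell identity and that activate many genes of this receptor. Stem cells and early multipotent progenitors are known to carry little of this programme, which starts in lymphoid-primed and common lymphoid progenitors.

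The promoter windows of Vpreb1, Igll1 and Blnk are shown because these genes had the largest differences among the 9. Each window runs from 250 bases before to 50 bases after the start site annotated by RefSeq on GRCm38.p6, read 5′ to 3′ on the strand of the gene. Capitals mark matches to the EBF1 core motif CCCNNGGG and to the E-box CANNTG, which E proteins bind, searched on both strands. Vpreb1 lies on the minus strand at chr16:16869206-16869505, Igll1 on the minus strand at chr16:16863936-16864235 and Blnk on the minus strand at chr19:40994172-40994471. The start sites of Vpreb1 and Igll1 are 5270 bases apart.
Vpreb1: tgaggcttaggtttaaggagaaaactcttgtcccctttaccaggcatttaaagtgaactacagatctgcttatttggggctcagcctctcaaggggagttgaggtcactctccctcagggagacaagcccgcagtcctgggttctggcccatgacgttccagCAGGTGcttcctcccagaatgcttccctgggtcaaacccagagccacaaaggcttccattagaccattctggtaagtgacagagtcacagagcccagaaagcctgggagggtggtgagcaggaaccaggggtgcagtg
Igll1: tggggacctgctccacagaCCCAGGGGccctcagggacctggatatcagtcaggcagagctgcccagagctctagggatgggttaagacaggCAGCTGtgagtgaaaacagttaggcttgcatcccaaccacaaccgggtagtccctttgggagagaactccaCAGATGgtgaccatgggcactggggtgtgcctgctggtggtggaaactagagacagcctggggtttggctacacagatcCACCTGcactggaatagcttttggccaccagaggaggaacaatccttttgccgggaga
Blnk: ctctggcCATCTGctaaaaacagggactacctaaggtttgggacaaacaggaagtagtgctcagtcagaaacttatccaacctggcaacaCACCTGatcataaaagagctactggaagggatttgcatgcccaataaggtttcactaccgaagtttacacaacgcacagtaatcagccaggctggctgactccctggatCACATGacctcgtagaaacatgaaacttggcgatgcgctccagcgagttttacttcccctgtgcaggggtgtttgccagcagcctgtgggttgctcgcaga

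The EBF1 core was found in the Igll1 window only among the 9 windows listed for 7 of the members, and 13.7% of all 32851 promoter windows of this length hold it. Cd79b and Blk had no window. An E-box was present in 8 of the 9 windows, against 72.3% of all windows, with 3 matches each in Igll1 and Blnk and 1 in Vpreb1. The E-box CACCTG, counted among the CANNTG matches and of the type that the E protein E2A binds, was present in 6 of the 9 windows (20.2% of all), and CAGCTG, the other form of this type, in 2 (16.3% of all). The ETS core GGAA was present in 8 of 9 windows and in 96.0% of all, so its presence does not set these windows apart. Of the E2F motifs TTTCCCGC and TTTGGCGC, neither was in a member window, and 1.07% and 0.514% of all windows hold them. These matches describe letters in a window and are not measured binding.

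**Figure D1:**
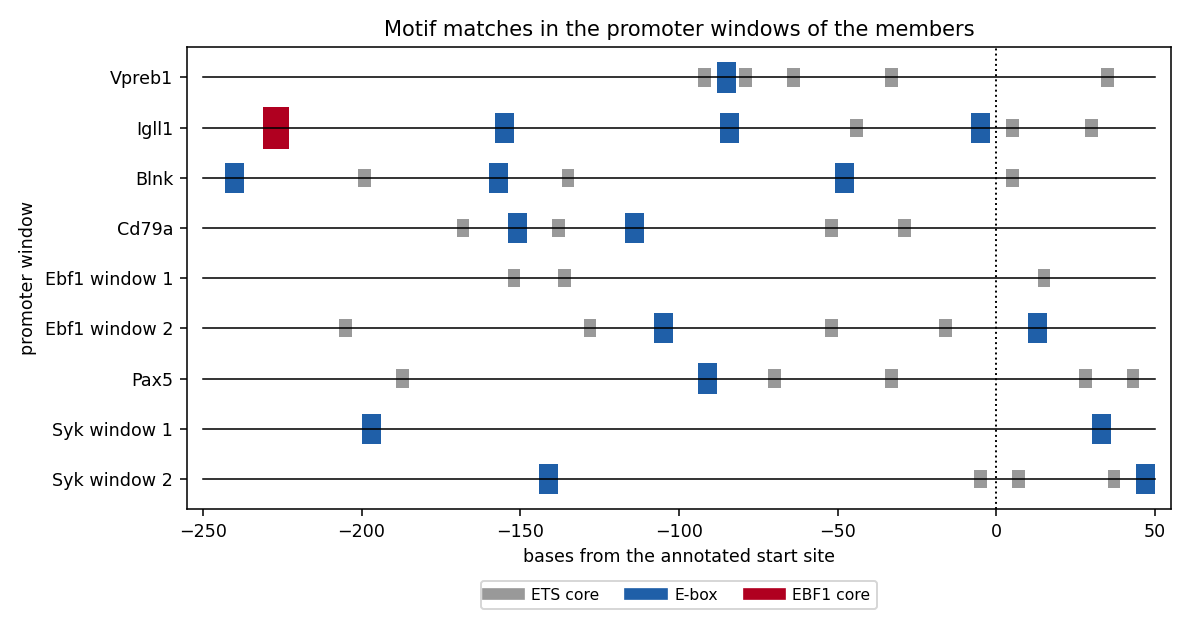
Position of motif matches in the 9 promoter windows listed for 7 member genes, with the horizontal axis in bases from the annotated start site (dotted line). Red boxes are EBF1 core matches, blue boxes E-boxes and grey boxes ETS cores; the EBF1 core appears once, in Igll1, from base -231 to base -224.

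Blnk fell in the deficient arrays, and Vpreb1 and Igll1 were lower on every deficient array, while Syk was higher on every deficient array on its 2 bright probe sets without passing. Over the 18 member probe sets, 1 passed as lower and 0 passed as higher (limma, Benjamini-Hochberg adjusted p under 0.05 over all probe sets), where 0.326% of all probe sets were lower and 0.164% higher. At an unadjusted p under 0.05, 7 member probe sets were lower and 2 higher, against 6.82% and 7.28% of all probe sets. Both higher ones belong to Syk and several lower ones to Ebf1, so these counts hold repeated measures of 1 gene. Of the 7, 4 had a mean level at or below the median of all probe sets. The groups of arrays did not overlap for 8 probe sets that were lower and 2 that were higher, against 15.2% and 15.4% of all probe sets. The median difference, deficient minus control on the log2 scale, was -0.19 over the 18 and 0.0027 over all probe sets.

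A second fit used 1 probe set per gene, the one with the highest mean over the 5 arrays. There 2 of the 9 members fell, Blnk and Igll1, where 1.41% of 18193 genes were lower, and 0 rose, where 0.83% of genes were higher. The count of members that fell was 1, Blnk, without control 1, deficient 1 or deficient 3. At an unadjusted p under 0.05, 5 members were lower and 1 higher, against 9.86% and 8.79% of all genes. The groups did not overlap for 6 members that were lower and 1 that was higher, against 18.6% and 16.5% of all genes, and the median was -0.72 over the 9 and -0.01 over all genes. In bulk RNA, fewer cells of a type and less RNA per cell cannot be told apart.

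**Figure D2:**
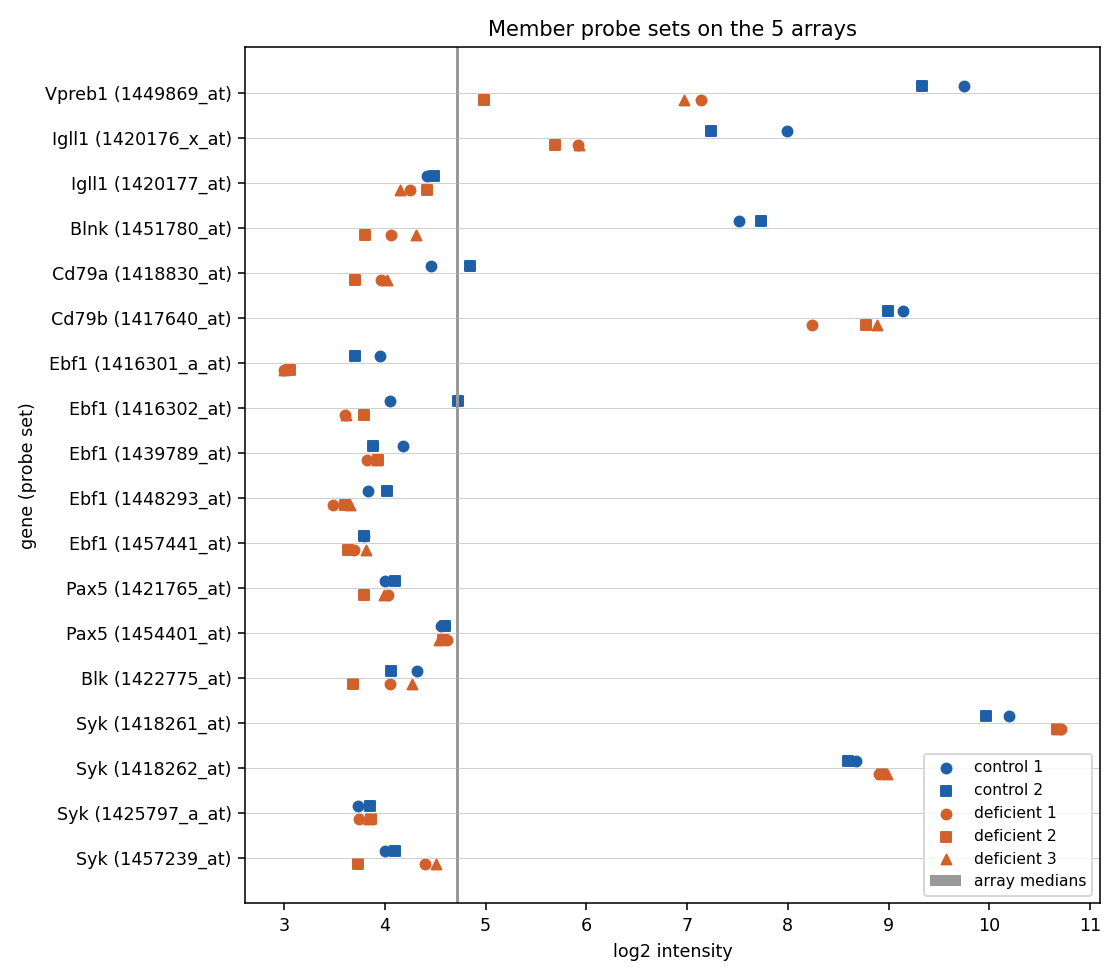
Log2 intensity (horizontal axis) of each of the 18 member probe sets on the 5 arrays, with blue symbols for the 2 control arrays and orange symbols for the 3 deficient arrays; the grey line covers the array medians, 4.71 to 4.74. For Blnk the control arrays lie at 7.51 and 7.73 and the deficient arrays between 3.80 and 4.31, while the Pax5, Blk and Ebf1 points lie below their array medians in both groups.

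Vpreb1 encodes the variable-like part of the surrogate light chain. Its probe set (1449869_at) read 863 and 644 intensity units in controls 1 and 2 and 141, 31.7 and 125 in deficient 1, 2 and 3. Both controls were above all deficient arrays, and deficient 2 was the lowest by a wide margin. On the log2 scale the levels were 9.54 ± 0.30 (SD, n = 2) and 6.36 ± 1.20 (SD, n = 3), a difference of -3.18 (SE 0.65) that did not pass over all probe sets (limma adjusted p = 0.112) or with 1 probe set per gene (adjusted p = 0.0686). The difference was -2.49 without deficient 2, where it passed (adjusted p = 0.0455), and between -3.57 and -2.97 without any other array. Deficient 2 is also the array that stood apart for the sex-linked genes, with 12.42 for Xist (1427262_at) and 3.50 for Eif2s3y (1417210_at). Deficient 1 and 3 read 3.44 and 3.73 for Xist and 10.21 and 10.37 for Eif2s3y, and controls 1 and 2 read 3.58 and 9.31 for Xist and 9.81 each for Eif2s3y, so control 2 was the array bright for both genes. A further fit took the brightest Xist probe set (1436936_s_at) as a covariate. This probe set read 6.12 and 10.67 in controls 1 and 2 and 5.09, 12.45 and 5.51 in deficient 1, 2 and 3. In that fit the Vpreb1 difference was -3.35 (limma adjusted p = 0.0320). Because control 2 was bright for both Xist and Eif2s3y, this covariate does not measure sex alone. The part that sex had in the Vpreb1 value was not tested.

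Igll1 encodes lambda5, the constant-like part of the surrogate light chain. Its brighter probe set (1420176_x_at) read 254 and 151 in the controls and 60.2, 51.6 and 60.8 in the deficient arrays. The 3 deficient arrays lay close together and below both controls, which were less alike, at 7.99 and 7.24 on the log2 scale. Levels were 7.61 ± 0.53 and 5.84 ± 0.13, a difference of -1.77 (SE 0.23; limma adjusted p = 0.0513 over all probe sets and 0.0266 with 1 probe set per gene). The other probe set (1420177_at) read below the array median on all 5 arrays, at 4.45 ± 0.05 and 4.27 ± 0.14, and its difference was -0.18 (95% interval -0.48 to 0.12). The suffix of the brighter one marks a probe set that can also detect related transcripts, so the call for Igll1 rests on that probe set alone. With 1 array left out, Igll1 passed in the fit by gene only without control 2 (adjusted p = 0.0219), and its adjusted p reached 0.0844 among the other 4 fits.

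Blnk, the adaptor that carries the signal from SYK to phospholipase C, had the largest difference of the 9 genes. Its probe set (1451780_at) read 183 and 212 in the controls and 16.7, 13.9 and 19.9 in the deficient arrays. The gap between the lowest control and the highest deficient array was 3.20 on the log2 scale, and all 3 deficient arrays lay below the array medians of 4.71 to 4.74. Levels fell from 7.62 ± 0.15 to 4.06 ± 0.26, by 3.57 on the log2 scale (SE 0.18, limma adjusted p = 0.00462 over all probe sets and 0.00201 with 1 probe set per gene). The difference stayed between -3.69 and -3.44 with any 1 array left out and passed each of those 5 times. Deficient levels this dim are compressed by the authors' normalization, so the size of the fall may be understated. It also depends on how dim values are handled. With an offset of 16 added before the log2 the difference was smaller, at -2.70 (limma adjusted p = 0.0160).

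**Figure D3:**
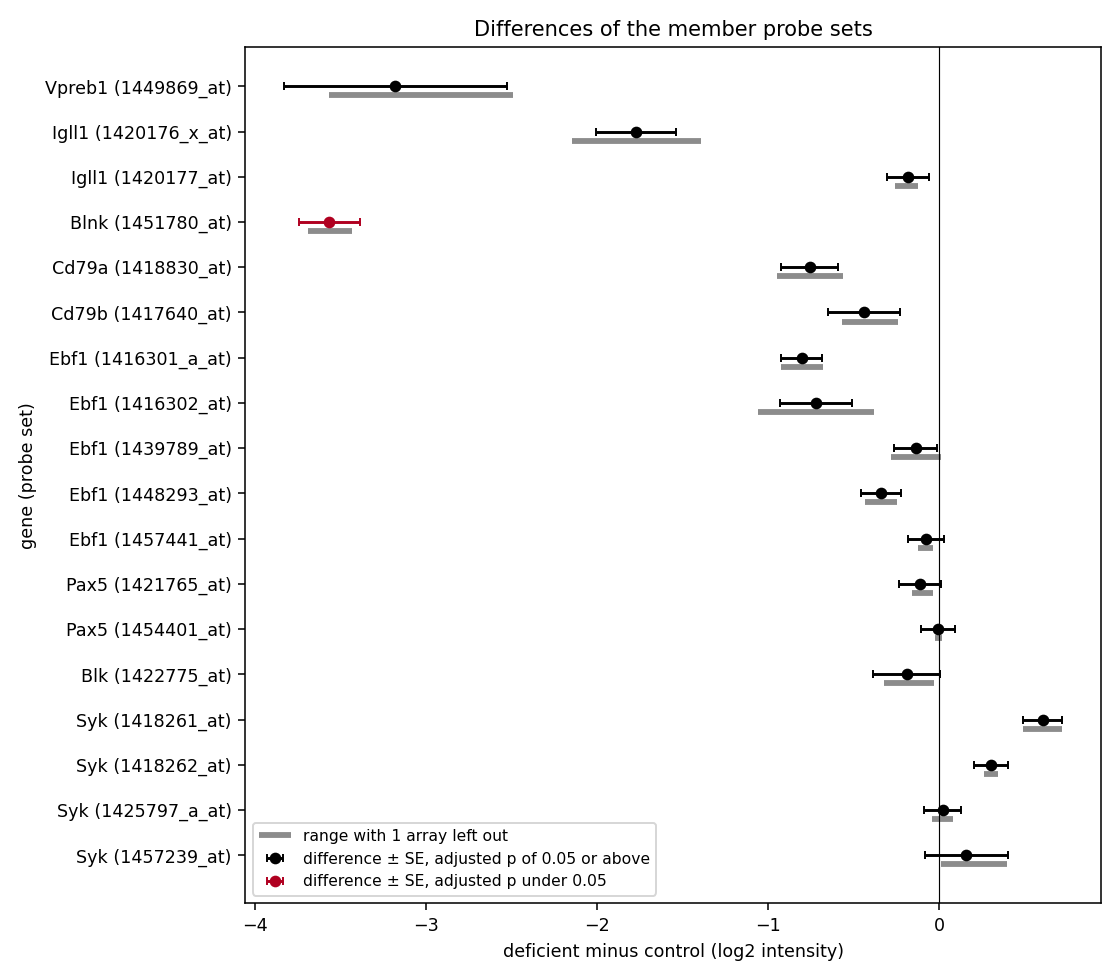
Difference between deficient and control arrays (log2 intensity, horizontal axis) for each member probe set, with bars for ± 1 SE and grey lines for the range when 1 array was left out. Blnk, in red, is the probe set that passed at -3.57; the Vpreb1 range runs from -3.57 to -2.49 and the brighter Syk probe set lies at 0.61.

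The signalling pair of the receptor differed less. Cd79a (1418830_at) read 22.0 and 28.7 in the controls and 15.6, 13.0 and 16.2 in the deficient arrays. The groups did not overlap, but control 2 was the only array of the 5 above its array's median, so Cd79a was dim throughout. Its difference was -0.76 (SE 0.17, adjusted p = 0.129, 95% interval -1.16 to -0.35) and ran from -0.95 to -0.56 with 1 array left out. Cd79b (1417640_at) read 566 and 511 in the controls and 302, 439 and 472 in the deficient arrays. It was above the median on all 5 arrays, and its groups were 0.11 apart at their closest. The difference was -0.44 (SE 0.21, adjusted p = 0.445, 95% interval -0.96 to 0.08) and was -0.24 without deficient 1, the lowest array.

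The transcription factor genes Ebf1 and Pax5 were dim in both groups. All 5 Ebf1 probe sets read between 3.00 and 4.73 on the log2 scale on all arrays, each below its array's median. The groups did not overlap for 3 of them, all lower, against 15.2% of all probe sets. The largest difference was -0.80 (1416301_a_at, SE 0.12, adjusted p = 0.0615), from 3.82 ± 0.17 to 3.02 ± 0.03, followed by -0.72 (1416302_at, SE 0.21, adjusted p = 0.207) and -0.34 (1448293_at, adjusted p = 0.275). The other 2 Ebf1 probe sets differed by -0.14 and -0.08 with overlapping groups. The first of these Ebf1 values passed with an intensity trend in limma (adjusted p = 0.0147) and was -0.32 with an offset of 16 added before the log2 (adjusted p = 0.112). The second was -0.38 without control 2 and -1.06 without control 1. With 1 array left out, 4 of the 5 Ebf1 differences stayed negative throughout, 1439789_at reached 0.0095 without control 1, and 0 passed.

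Pax5 showed no difference beyond the spread between arrays. Its 2 probe sets read 4.05 ± 0.06 and 3.94 ± 0.13 (1421765_at), and 4.58 ± 0.02 and 4.57 ± 0.04 (1454401_at), in controls and deficient arrays. Both were below the medians on every array, with differences of -0.11 (95% interval -0.41 to 0.19) and -0.0034 (-0.25 to 0.24). At levels this dim in both groups a change of the Pax5 transcript could be missed.

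Neither kinase gene passed. Blk, a SRC family kinase of B cells, read 19.9 and 16.7 in the controls and 16.5, 12.8 and 19.3 in the deficient arrays (1422775_at), below the median on every array and with overlapping groups (difference -0.19, SE 0.20, adjusted p = 0.771). Syk, which also acts downstream of Fc receptors and integrins in myeloid cells, was bright on 2 of its 4 probe sets. The brightest (1418261_at) read 1170 and 1000 in the controls and 1680, 1632 and 1626 in the deficient arrays. The deficient arrays lay close together, and all were above both controls. The levels were 10.08 ± 0.16 and 10.68 ± 0.03, a difference of 0.61 (SE 0.12, limma adjusted p = 0.0973 over all probe sets and 0.0638 with 1 probe set per gene). On the next Syk probe set (1418262_at) the controls read 409 and 388 and the deficient arrays 480, 489 and 507, a difference of 0.30 (SE 0.10, adjusted p = 0.258). The remaining 2 Syk probe sets were below the median on all arrays, with differences of 0.02 and 0.16 and overlapping groups. Without any 1 array the brightest Syk value stayed between 0.49 and 0.72 and did not pass.

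**Figure D4:**
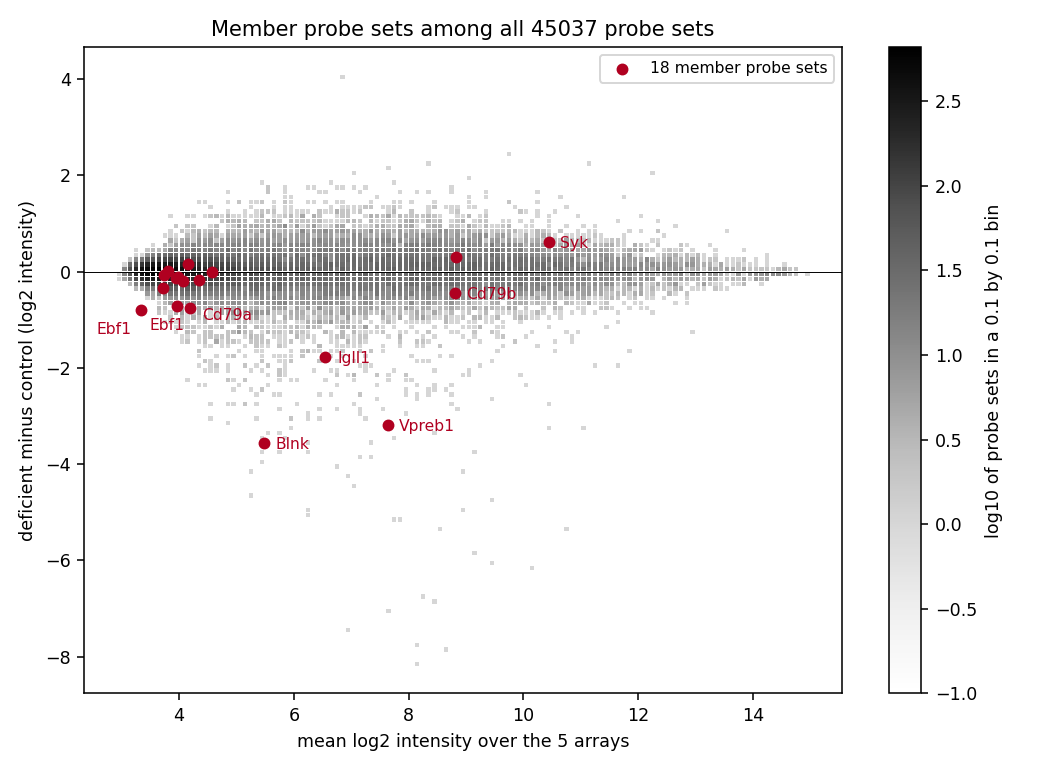
Difference between deficient and control arrays (vertical axis, log2) against the mean log2 intensity over the 5 arrays (horizontal axis) for all 45037 probe sets, in grey bins, with the 18 member probe sets in red and those beyond 0.4 in either direction named. Blnk, Vpreb1 and Igll1 lie below the bulk of probe sets of their level, while Pax5, Blk and 2 of the 5 Ebf1 probe sets lie at the dim end with differences between -0.19 and -0.0034.

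Genes with a pattern most like that of a member over the 5 arrays were taken by the smallest root mean square distance between centred log2 values, for the 3 members with non-overlapping groups and a span above 2 log2 units. For Blnk they were Chil1 (distance 0.26), Ifitm6 (0.29) and Olfm4 (0.32), which fell by 3.40, 3.81 and 4.12 on the log2 scale. For Vpreb1 they were Sult1a1 (0.32), Ndn (0.41) and Mmrn1 (0.42), each with its lowest value on deficient 2, as Vpreb1 had. For Igll1 they were Clec1a (0.09), Gimap8 (0.10) and Gimap6 (0.11). With 5 arrays in 2 groups many genes share such a pattern, and these names are a description.

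Other genes of the pathway were taken from 5 lists. Of 75 listed genes with a probe set of 1 symbol, 7 fell and 0 rose over all genes in the limma fit (4 fell without deficient 3), 68 did not pass, and the median was -0.18, with 1.41% of all genes lower and 0.83% higher as background. At an unadjusted p under 0.05, 21 of the 75 were lower and 5 higher, against 9.86% and 8.79% of all genes. Recombination and cytokine genes held the largest falls: Il7r, the receptor for the cytokine that sustains B cell precursors, fell from 8.46 ± 0.16 to 4.76 ± 0.38 (adjusted p = 0.00369), and Rag1, which cuts antigen receptor genes for rearrangement, from 6.74 ± 0.16 to 4.02 ± 0.06 (adjusted p = 0.00177). Socs2, a feedback inhibitor of cytokine signalling, fell by 1.17 on the log2 scale (adjusted p = 0.0452), and 12 of the 15 measured genes of that list did not pass. One of these was Dntt, which adds bases at the joints of rearranged genes, with 13.16 and 12.88 in the controls and 9.09, 11.08 and 9.19 in the deficient arrays (difference -3.23, adjusted p = 0.0579). Here deficient 2 was the highest deficient array, where for Vpreb1 it was the lowest.

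Among 20 transcription factor genes of the B lineage, 3 fell and 17 did not pass (median -0.12). Pou2af1, a coactivator of octamer-binding factors in B cells, fell from 5.85 ± 0.30 to 3.49 ± 0.14 (adjusted p = 0.00471). Id2 and Id3 encode inhibitors of E proteins and so act against B commitment. Id2 fell from 8.36 ± 0.11 to 6.43 ± 0.05 (adjusted p = 0.00346) and Id3 by 0.79 on the log2 scale (adjusted p = 0.0444). Tcf3, which encodes E2A, differed by 0.09 (adjusted p = 0.799) and Foxo1 by -0.68 (adjusted p = 0.0884). Irf8, which also serves myeloid and dendritic fates, differed by -1.21 (adjusted p = 0.0599). Leaving out each array in turn, Pou2af1, Id2, Il7r, Rag1 and Blnk passed 5 of 5 times. Id3 and Socs2 did not pass in any of those 5 fits.

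Of 18 surface genes of B cells, Ly6d, which marks B-biased lymphoid progenitors, fell from 6.31 ± 0.51 to 4.35 ± 0.15 (adjusted p = 0.0204; passing in 2 of 5 fits with 1 array left out, with an adjusted p of up to 0.0736 in the others), and 17 did not pass (median -0.36). Cd22, an inhibitory receptor of B cells, differed by -0.51 (adjusted p = 0.0972) and Fcrl1 by -0.72 (adjusted p = 0.129). Among 20 genes that act downstream of the receptor 0 passed (median -0.07; 4 lower and 2 higher at an unadjusted p under 0.05, against the same 9.86% and 8.79%). The adaptor gene Lcp2, a relative of Blnk used in T and myeloid cells, had the smallest p of that list with a difference of -0.81 (adjusted p = 0.0705), followed by the kinase gene Fgr at -0.64 (adjusted p = 0.109) and the ubiquitin ligase gene Cbl at 0.74 (adjusted p = 0.127). Btk and Plcg2, the kinase and the phospholipase that BLNK brings together, differed by -0.03 and 0.12. Of the receptor partners, Ighm, the heavy chain of the pre-B receptor, differed by -3.25 (adjusted p = 0.0707) on its brightest probe set, with 11.11 and 13.61 in the controls and 8.88 to 9.32 in the deficient arrays. On another Ighm probe set (1425385_a_at) control 2 read 11.12 and the other 4 arrays 3.93 to 4.26, so the 2 controls differed from each other for Ighm. Immunoglobulin probe sets can detect related gene segments. Vpreb3 was dim and differed by -0.20 (adjusted p = 0.510).

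**Figure D5:**
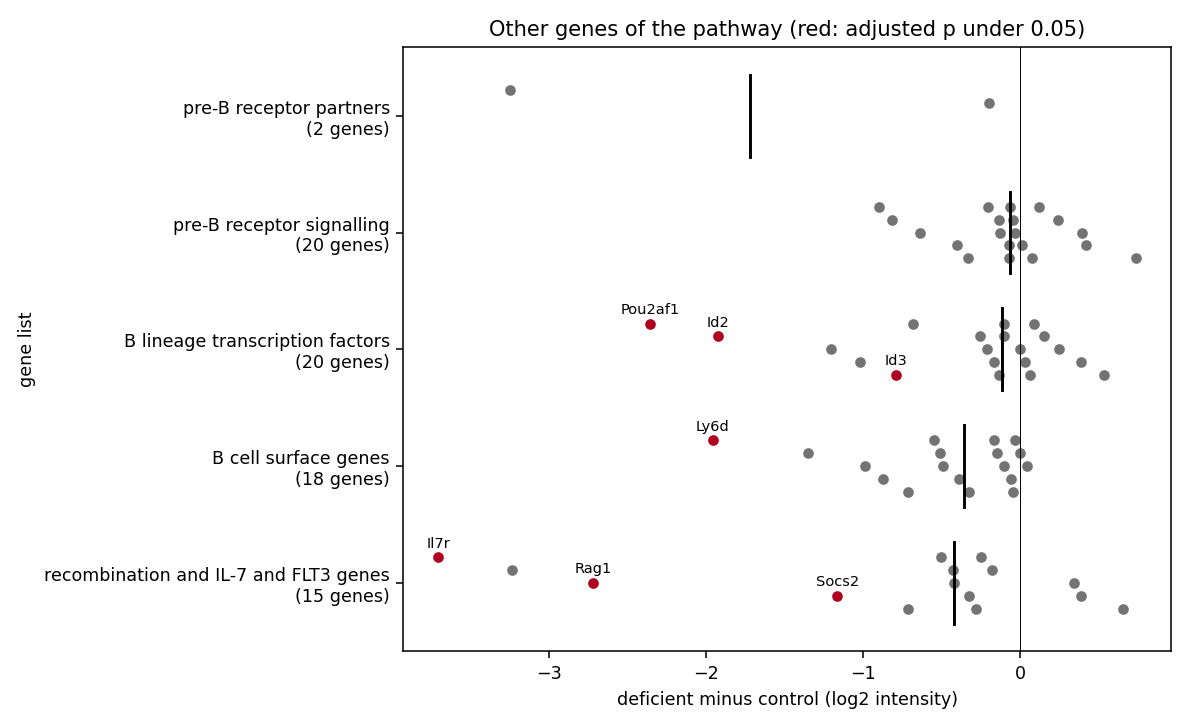
Difference between deficient and control arrays (horizontal axis, log2 intensity) for the 75 measured genes of 5 pathway lists, 1 point per gene, with red points for adjusted p under 0.05 and black bars for list medians. The 7 red genes are all lower, and the points of the signalling list scatter on both sides of 0.

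Markers of other cell types also moved, and their lists, which share some genes with the pathway lists, are given as measured. Over all genes, 1.41% passed as lower in limma. All 9 measured neutrophil markers fell, and the mean level over the list was 11.09 and 11.58 in the controls and 6.28 to 7.22 in the deficient arrays. Of 8 plasma cell markers 3 fell (list mean 7.62 and 8.10 against 5.31 to 5.45), among them Igha, which fell by 7.88, and Jchain, which fell by 7.48 on the log2 scale. The groups did not overlap for 5 of the 8, all lower, against 18.6% of all genes. Xbp1, Prdm1 and Eaf2 of the same list differed by -0.03, -0.08 and 0.0067, with overlapping groups. Of 10 macrophage and dendritic markers 1 fell (7.45 and 7.80 against 6.43 to 6.77). At an unadjusted p under 0.05 in limma 8 of the 10 were lower, against 9.86% of all genes. The groups did not overlap for 8, all lower, against 18.6% of all genes. Of 9 plasmacytoid dendritic markers 3 fell (7.31 and 7.42 against 6.35 to 6.53). Group means were lower for 8 of the 9, with non-overlapping groups for 6 of those, against 18.6% of all genes. Among them Ccr9 fell by 2.35 and Cox6a2 by 1.26 on the log2 scale, while Siglech, a defining marker, read 4.67 and 4.87 in the controls and 4.60 to 4.75 in the deficient arrays. Of 10 T and NK markers 2 fell (5.99 and 6.91 against 5.62 to 5.97), and group means were lower for 7 and higher for 3. The groups did not overlap for 4 that were lower and 1 that was higher, Nkg7 (0.63), against 18.6% and 16.5% of all genes. Cd3g read 3.79 on control 1 and 7.26 on control 2, so the controls differed from each other here.

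Of 8 mature B cell markers 0 passed over all genes in limma. At an unadjusted p under 0.05, 3 were lower, against 9.86% of all genes. Group means were lower for 7 of the 8. The groups did not overlap for 6, all lower, against 18.6% of all genes. List means were 5.25 and 5.51 in the controls and 4.76 to 4.94 in the deficient arrays. Cd72 read 9.17 and 8.99 in the controls and 8.56 to 8.90 in the deficient arrays. Tnfrsf13c read 7.38 and 7.34 against 5.49 to 6.88. Cr2 and Fcer2a read below 3.90 on all arrays. Ms4a1, which encodes CD20, read 5.62 on control 1 and 3.82 on control 2. Of 5 red cell markers 0 passed in limma and 0 had an unadjusted p under 0.05 (5.85 and 6.00 against 5.49 to 5.91). The part that such cells had in the member values was not tested. Of 8 measured markers of the sorted fraction, 0 passed in limma (1 lower and 1 higher at an unadjusted p under 0.05). List means were 10.32 and 10.83 in the controls and 10.28 to 10.48 in the deficient arrays, and Kit differed by 0.06. The lower one was Mecom (difference -1.19) and the higher one Gata2 (0.48), both with non-overlapping groups. The label check on the targeted genes gave a difference of -3.04 for Rbl1 (adjusted p = 0.0513 over all probe sets and 0.0266 with 1 probe set per gene), with non-overlapping groups. For Rb1 (-0.36, adjusted p = 0.664) and Rbl2 (-0.46, adjusted p = 0.374), both in the fit by gene, the groups overlapped: Rb1 was 8.93 on deficient 1 against 8.84 and 8.65 in the controls, and Rbl2 on deficient 3, at 8.07, was above control 2. These 2 genes therefore did not separate the labelled groups, and the files do not place the probes relative to the deleted exons.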

How the data were processed

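Trizol-extracted total RNA of KLS cells was hybridised as biotin-labelled cRNA, per the labels' protocols. The authors deposited 1 intensity value per probe set and array, made with RMA, per the submitters' processing notes; the software version is not given in the sources used here. RMA gives the arrays a common distribution and compresses dim values. The log2 of the intensity was taken here. All 5 columns were matched to samples.

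Differences were estimated by limma (version 3.58.1, lmFit then eBayes, two-sided tests, under R 4.3.3) on 2 control and 3 deficient arrays, adjusted by Benjamini-Hochberg over 45037 probe sets (64 AFFX controls left out) or, with 1 probe set per gene, over 18193 genes; the threshold was an adjusted p of 0.05. The fit was tested on simulated data drawn from limma's own model, which cannot show whether that model holds for these arrays. GEO's annotation of the platform gave the gene names. Named genes were the members, the 3 pathway genes per list with the smallest p, all called pathway genes and the nearest patterns; Dntt, Tcf3, Foxo1, Irf8, Btk, Plcg2 and single markers were chosen after their values were seen. Members and lists were chosen with earlier results of these data known. Promoters came from RefSeq (GRCm38.p6). Of 85 listed pathway genes 75 matched. Protein sequences were not analysed here. Alternatives were other normalizations, an offset of 16, filters, eBayes settings, an Xist covariate, a replicate block and each array left out.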

Additional observations from a re-analysis of the deposited data

How the results depend on the processing

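Member probe sets called lower numbered 1 with every choice as reported. They numbered 2 after median centring, cyclic loess or a second quantile normalization, without dim probe sets, or with Xist as a covariate, 3 with an intensity trend in limma and 0 with the replicate block. Leaving out 1 deficient array gave 1 to 2. Over all 45037 probe sets the calls moved as well. As reported 147 were called lower, against 260 with the trend and 15 with the replicate block. With 1 deficient array left out, 21 to 39 were called lower. Member genes called lower numbered 2 as reported, 1 with an offset of 16 or without probe sets ending in _x_at or _s_at, 4 with the intensity trend (Blnk, Igll1, Vpreb1 and Cd79a), 3 with Xist as a covariate and 1 with the replicate block; leaving out 1 array gave 1 to 2. Member genes called higher numbered 0, and 1 (Syk) with the trend. Pathway genes called lower numbered 7, 10 with the intensity trend, 9 without probe sets ending in _x_at or _s_at or with a gene's probe sets averaged, 6 without dim probe sets, 5 with the offset, 1 with the replicate block and 4 to 8 with 1 array left out. Over all 18193 genes, 257 were called lower as reported, 353 with the trend, 170 with the offset and 20 with the replicate block. With 1 deficient array left out the number was 57 to 84. Genes called higher numbered 151 as reported and 204 with the trend. Under the replicate block the Blnk difference was -3.69 (adjusted p = 0.0662) and that of Ebf1 (1416301_a_at) -0.79 (adjusted p = 0.240). The replicate numbers are not known to pair the arrays: deviations of same-numbered arrays correlated at -0.05 and -0.02, and the block sets deficient 3 aside. Of 257 recomputed member differences, 9 changed sign, all on dim probe sets: for Pax5 (1454401_at) to 0.0063 (quantile), 0.0062 (loess), 0.012 (median centring), 0.016 (replicate block) and -0.024 to 0.016 with 1 array left out, for Ebf1 (1439789_at) to 0.0095 without control 1 (range -0.28 to 0.0095), and for Syk (1425797_a_at) to -0.039 without control 1 and -0.0019 without deficient 2 (range -0.039 to 0.082). The cause of these shifts was not tested. Detection calls were not used here, and a difference of a dim member may be missed or understated.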
